A study of Sus scrofa with 22 samples.

Results

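The genes ATF4, ATF3, TRIB3, PPP1R15A and VLDLR, members of the integrated stress response and its surroundings, were followed through 22 pig RNA sequencing libraries. They were taken by name, 5 of 14389 genes that could be measured, with the transcript records of each gene summed. The names were selected on results of these libraries: ATF3, TRIB3 and PPP1R15A had been noted for their CPM and log2 fold change between abnormal and normal cloned fetuses, and what brought in ATF4 and VLDLR is not recorded. Their values in contrasts between abnormal, normal and naturally fertilized fetuses, and between days in abnormal clones, are therefore a description without a test, and nothing is supported with them. Tests of the 5 genes are given for the change between days in normal clones and in naturally fertilized fetuses, and between embryo groups. The normal libraries also stand in the contrasts the genes were noted for. Tests between days in normal clones are therefore not independent of that choice, and nothing is supported with them either.

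Body tissue of fetuses was sequenced at day 35 and day 30, from cloned fetuses labelled abnormal (2 libraries per day), cloned fetuses labelled normal (3 per day) and naturally fertilized fetuses, NF (2 per day). Clones were made by somatic cell nuclear transfer, in which the nucleus of a body cell replaces that of an egg. All fetus libraries were labelled male, except the second day 30 NF library, which was labelled female. Blastocysts grown in vitro to day 6 gave 2 libraries each of WT+Kdm4A, XIST-KO, WT and IVF. The first 3 groups were labelled male, and the IVF libraries were labelled pools of male and female embryos. Kdm4A is a demethylase of lysine 9 of histone H3, and XIST is the long non-coding RNA that silences an X chromosome. How the groups of fetuses called abnormal and normal were told apart, and how XIST was inactivated or Kdm4A supplied, is not given in the labels. The labels do not say whether libraries of a group came from separate animals or cultures, so errors and p-values measure the spread between libraries, which may in part be technical.

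The integrated stress response starts when one of several kinases senses misfolded protein in the endoplasmic reticulum (ER), lack of amino acids, lack of haem or viral RNA, and phosphorylates the translation initiation factor eIF2. General protein synthesis then slows, while the mRNA of the transcription factor ATF4 is translated more. ATF4 is regulated largely at translation, so its mRNA level is not a measure of its activity. ATF4 and its partners turn on genes of amino acid uptake and synthesis, of redox balance and of further transcription factors, ATF3 among them. PPP1R15A and TRIB3 feed back: PPP1R15A (GADD34) brings protein phosphatase 1 to eIF2 and so restores translation, and TRIB3 is a pseudokinase that binds ATF4 and lowers its activity. VLDLR is a receptor for triglyceride-rich lipoproteins and, in the developing brain, for reelin, and ATF4 induces it in mammalian cells under ER stress.

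On the pig assembly Sscrofa11.1, ATF4 lies on chromosome 5 from 8742964 to 8745752 and was measured by 1 record of 1400 nt. ATF3 lies on chromosome 9 from 130772259 to 130829678, with records of 2011 and 1913 nt. TRIB3 lies on chromosome 17 from 34808273 to 34819592, with 1 record of 1428 nt. PPP1R15A lies on chromosome 6 from 54172038 to 54175461, with records of 2382 and 2379 nt. VLDLR lies on chromosome 1 from 219178501 to 219210332, with records of 2538 and 3323 nt. The matched records are 1 of 2 annotated transcripts of ATF4, 2 of 4 of ATF3, 1 of 1 of TRIB3, 2 of 2 of PPP1R15A and 2 of 8 of VLDLR, so the levels of ATF4, ATF3 and VLDLR may be understated.

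Fetus libraries held 0.59 to 11.54 M (1 M is 1e+06) expected counts and embryo libraries 6.45 to 20.35 M. The second day 35 abnormal library was the shallowest, at 0.59 M against 3.46 M or more in the other fetus libraries. Across genes its rank correlation was 0.889 to 0.908 with the NF libraries. With the other clone libraries it was 0.783 to 0.829, and 0.789 with the other day 35 abnormal library. By this measure the second day 35 abnormal library was nearer to NF than to clone libraries. The part of that likeness in the day 35 values of abnormal clones was not tested. Genes of chromosome Y went against some labels. Their summed level over 11 measured genes was 536 and 297 CPM in the day 35 abnormal libraries, labelled male, where EIF1AY was at 0, against 721 to 948 CPM in day 35 normal libraries. In day 30 NF it was 279 CPM in the library labelled male and 1410 CPM in the library labelled female. For the 5 genes, abnormal over normal at day 35 and normal over NF at day 30 are given with and without these libraries.

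Markers of the tissues of a fetus differed in level between the groups. The summed level of 6 measured neural genes was 147 and 119 CPM in day 35 abnormal libraries, 2032 to 3240 CPM in day 35 normal libraries and 211 to 214 CPM in day 35 NF libraries. At day 30 it was 439 to 485 CPM in abnormal, 1521 to 1958 CPM in normal and 196 to 627 CPM in NF libraries. For 7 skeletal muscle genes the sums were 9.21 and 86.3 CPM in day 35 abnormal libraries, with TNNT3 at 0 in both, 644 to 1256 CPM in day 35 normal and 259 to 294 CPM in day 35 NF libraries. At day 35 both sums were highest in the normal libraries. For 6 measured genes typical of cultured fibroblasts, the sums were 1884 and 24165 CPM in day 35 abnormal libraries. They were 897 to 1083 CPM in day 35 normal and 9144 to 17488 CPM in day 35 NF libraries. At day 30 they were 1157 to 1910 CPM in abnormal, 814 to 828 CPM in normal and 9389 to 10224 CPM in NF libraries. The NF libraries and the second day 35 abnormal library, though labelled body tissue, thus had the highest fibroblast sums of the fetus libraries. Their neural sums lay below those of every normal library. The part of this in the differences from NF was not tested. Trophectoderm markers, which belong to the extraembryonic lineage, summed over 6 genes to 5410 and 210.4 CPM in day 35 abnormal libraries, with CDX2 at 0 in both, 250.2 to 386 CPM in day 35 normal and 62.4 to 97.7 CPM in day 35 NF libraries, and to 1994 to 2562 CPM in day 30 abnormal, 194 to 258 CPM in day 30 normal and 81.0 to 82.8 CPM in day 30 NF libraries. The sum of 6 erythroid genes was 2243 and 8.09 CPM in day 35 abnormal, 1430 to 2840 CPM in day 35 normal and 175 to 187 CPM in day 35 NF libraries, and 418 to 1552 CPM in day 30 abnormal, 1283 to 2892 CPM in day 30 normal and 58.8 to 227 CPM in day 30 NF libraries. That of 5 measured endothelial genes was 136 and 24.3 CPM in day 35 abnormal libraries and 518 CPM or more in day 35 normal and NF libraries. At day 30 the order differed, with 762 to 1068 CPM in abnormal, 442 to 477 CPM in normal and 127 to 552 CPM in NF libraries. So it did for 5 macrophage genes. Their sums were 29.2 and 10.8 CPM in day 35 abnormal and 71.0 to 111 CPM in day 35 normal libraries. At day 30 they were 65.4 to 65.5 CPM in abnormal and 19.2 to 28.5 CPM in normal libraries. Hepatocyte genes differed between the day 30 abnormal libraries, at 41.9 and 1550 CPM over 6 genes, against 73.1 to 103.1 CPM in day 30 normal libraries. In bulk tissue, fewer cells of a type and less RNA per cell cannot be told apart, and the part that tissue makeup plays in the results below was not tested.

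ATF4 mRNA, the hub of the response, was highest in NF fetuses and lowest in normal clones at both days. In CPM, the count scaled to a common library size by edgeR, ATF4 stood at 716 and 1136 in day 35 abnormal libraries, at 434, 383 and 435 in day 35 normal libraries and at 1149 and 1485 in day 35 NF libraries. At day 30 it stood at 449.6 and 467 in abnormal, 369, 311 and 305 in normal and 761 and 1236 in NF libraries. At each day every abnormal library lay above every normal library in CPM, and every NF library above both groups of clones. On TPM, which the authors scaled for length, the day 30 abnormal libraries (347.38 and 344.07) overlapped the first day 30 normal library (347.26). The log2 fold change of abnormal over normal was 1.14 ± 0.24 (SE) at day 35 and 0.48 ± 0.24 at day 30, the last being 0.21 ± 0.27 on the log2(TPM + 1) scale. Without the first and the second day 35 abnormal library the day 35 value was 1.43 ± 0.24 and 0.82 ± 0.23. Normal over NF was -1.66 ± 0.24 at day 35 and -1.60 ± 0.24 at day 30, or -1.90 ± 0.24 and -1.21 ± 0.25 without the first and the second day 30 NF library. Abnormal over NF was -0.52 ± 0.27 at day 35 and -1.12 ± 0.27 at day 30.

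ATF3, a transcription factor induced by ATF4 and by many other stress signals, was in contrast highest in abnormal clones. Its level was 226 and 56.6 CPM in day 35 abnormal libraries, 14.8, 17.0 and 19.9 CPM in day 35 normal libraries and 52.7 and 57.7 CPM in day 35 NF libraries. At day 30 it was 360.4 and 239 CPM in abnormal, 9.41, 8.07 and 7.93 CPM in normal and 29.9 and 56.4 CPM in NF libraries. Abnormal over normal had a log2 fold change of 3.14 ± 0.44 at day 35 and 5.15 ± 0.47 at day 30, with no overlap of the libraries. The day 35 value was 1.70 ± 0.49 without the first day 35 abnormal library and 3.76 ± 0.30 without the second. Of the 2 day 35 abnormal libraries, only the first lay above the NF libraries, and the log2 fold change of abnormal over NF at day 35, 1.45 ± 0.47, became -0.02 ± 0.47 without it. Day 30 abnormal over NF was 2.80 ± 0.48, and normal over NF was -1.68 ± 0.42 at day 35 and -2.35 ± 0.44 at day 30. Without the first and the second day 30 NF library the last value was -2.73 ± 0.49 and -1.82 ± 0.50.

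PPP1R15A, the stress-induced eIF2 phosphatase subunit, was lowest in normal clones and close in the other groups. It stood at 179 and 151 CPM in day 35 abnormal libraries, at 92.8, 71.5 and 95.7 CPM in day 35 normal libraries and at 174 and 234 CPM in day 35 NF libraries. At day 30 the level was 173 and 164 CPM in abnormal, 55.5, 55.9 and 55.9 CPM in normal and 99.2 and 199 CPM in NF libraries. Abnormal and NF libraries overlapped at both days, and no normal library reached either group. The log2 fold change of abnormal over normal was 0.94 ± 0.26 at day 35 and 1.59 ± 0.26 at day 30. Without the first and the second day 35 abnormal library the day 35 value was 0.79 ± 0.38 and 1.09 ± 0.30. Normal over NF was -1.24 ± 0.25 at day 35 and -1.42 ± 0.26 at day 30, or -1.83 ± 0.21 and -0.83 ± 0.21 without the first and the second day 30 NF library. Abnormal over NF was -0.29 ± 0.29 at day 35, or -0.63 ± 0.28 on the log2(TPM + 1) scale, and 0.17 ± 0.28 at day 30. The day 30 value was -0.24 ± 0.24 and 0.75 ± 0.24 without the first and the second day 30 NF library.

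TRIB3, the pseudokinase that restrains ATF4, had the widest range of the 5 genes. Abnormal libraries held 34.5 and 24.3 CPM at day 35 and 8.74 and 7.27 CPM at day 30. Normal libraries held 0.673, 0.592 and 0.913 CPM at day 35 and 1.45, 0.152 and 0.554 CPM at day 30, the lowest levels of any fetus group. These normal levels rest on 1.21 to 6 expected counts per library, so the size of any fold over them is uncertain. NF libraries held 45.7 and 91.2 CPM at day 35 and 5.59 and 58.2 CPM at day 30, so the 2 day 30 NF libraries lay on either side of the abnormal ones. The log2 fold change of abnormal over normal was 5.37 ± 0.96 at day 35 and 3.58 ± 1.02 at day 30, and that of normal over NF was -6.52 ± 0.92 at day 35 and -5.57 ± 0.93 at day 30. On the log2(TPM + 1) scale, which shrinks folds of low genes, abnormal over normal was 3.75 ± 0.72 at day 35 and 2.11 ± 0.72 at day 30. Abnormal over normal at day 35 was 5.01 ± 1.65 and 5.58 ± 1.06 without the first and the second day 35 abnormal library. Without the first day 30 NF library, normal over NF at day 30 was -6.44 ± 0.58. Without the second it was -3.06 ± 0.66, and abnormal over NF at day 30 was 0.50 ± 0.65 in place of -1.99 ± 0.87. Without the first day 30 normal library, abnormal over normal at day 30 was 4.46 ± 1.2.

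VLDLR, the lipoprotein receptor, ran the other way, with its lowest group means in NF fetuses. Day 35 abnormal libraries held 176 and 91.7 CPM, day 35 normal libraries 119.5, 142 and 129 CPM and day 35 NF libraries 78.5 and 94.5 CPM. Day 30 abnormal libraries held 114 and 154 CPM, day 30 normal libraries 91.6, 90.4 and 104 CPM and day 30 NF libraries 52.0 and 73.5 CPM. The log2 fold change of abnormal over normal was 0.10 ± 0.26 at day 35, where the abnormal libraries lay on both sides of the normal ones, and 0.49 ± 0.25 at day 30, or 0.16 ± 0.24 at day 30 on the log2(TPM + 1) scale. In CPM it was -0.52 ± 0.30 at day 35 without the first day 35 abnormal library and 0.48 ± 0.22 without the second. Normal over NF was 0.59 ± 0.25 at day 35 and 0.61 ± 0.25 at day 30, and abnormal over NF was 0.69 ± 0.28 at day 35, or 0.02 ± 0.31 without the first day 35 abnormal library, and 1.10 ± 0.28 at day 30. Without the first and the second day 30 NF library, normal over NF at day 30 was 0.38 ± 0.32 and 0.88 ± 0.32.

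**Figure D1:**
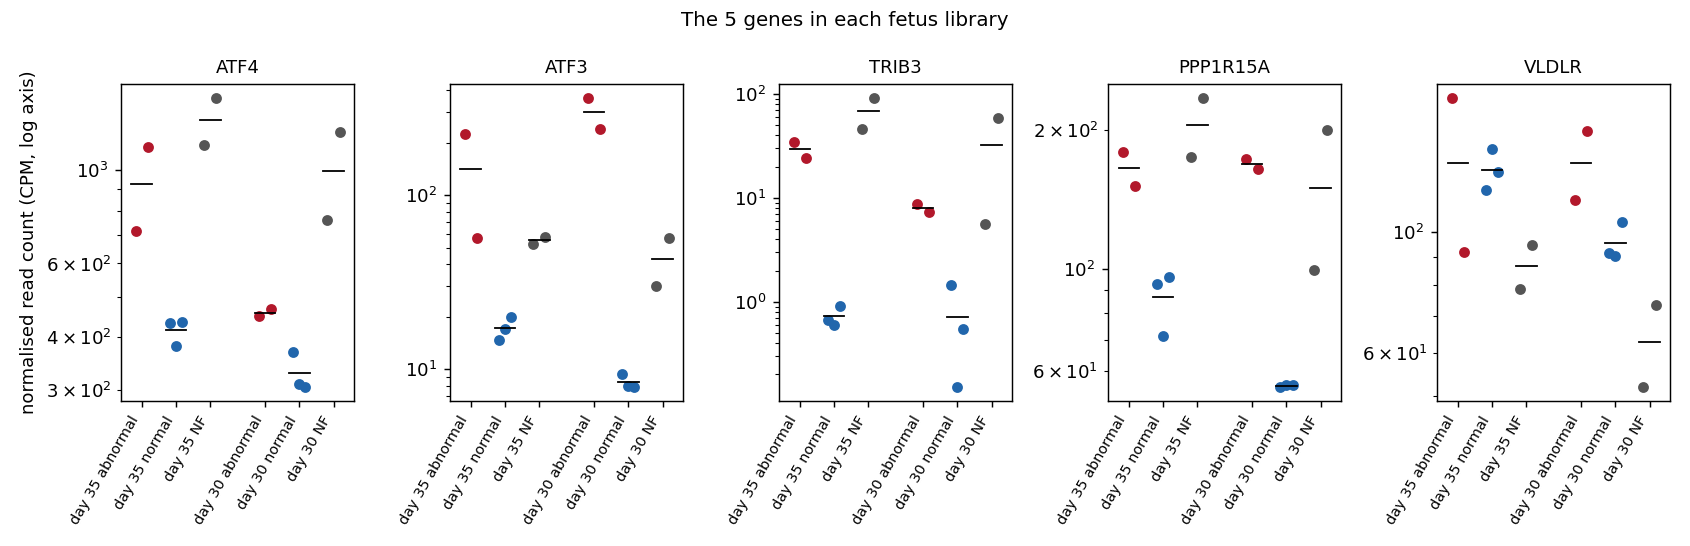
Normalised read counts (CPM, log axes) of ATF4, ATF3, TRIB3, PPP1R15A and VLDLR in the 14 fetus libraries, grouped as abnormal, normal and NF at day 35 and at day 30; each point is a library and each bar the mean of its group. Normal clones are lowest for the first 4 genes at both days, while NF fetuses are lowest for VLDLR except that the second day 35 abnormal library, at 91.7 CPM, lies among them.

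**Figure D2:**
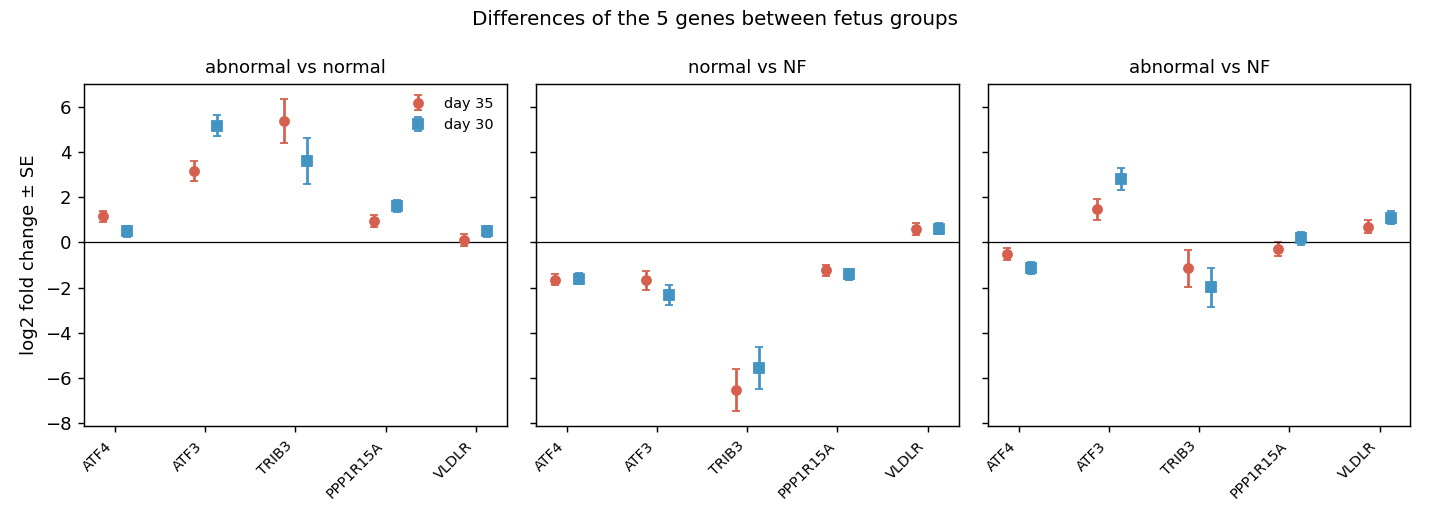
Log2 fold changes with standard errors of the 5 genes for abnormal over normal, normal over NF and abnormal over NF, at day 35 (circles) and day 30 (squares). TRIB3 is lowest in normal over NF, at -6.52 at day 35 and -5.57 at day 30, and ATF3 is the gene with the largest positive value in abnormal over NF at both days.

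Read against all 9911 genes tested in fetuses, these contrasts were broad. To pass was to have an adjusted p under 0.05 (edgeR quasi-likelihood test, Benjamini-Hochberg adjustment). In abnormal over normal, 23.2% of all genes passed at day 35 and 15.4% at day 30. In normal over NF, 42.3% of all genes passed at day 35 and 29.3% at day 30. In abnormal over NF, 23.2% of all genes passed at day 35 and 30% at day 30. No calls are given for the 5 genes in these contrasts, since the genes were chosen with the contrasts known. Groups that do not overlap were common as well: 43% of all genes at day 35 and 64.2% at day 30 in abnormal over normal, where 4 and 5 of the 5 genes did not overlap, and 72.8% and 65.8% in normal over NF, where the 5 genes did not overlap at either day. In abnormal over NF the shares were 45.2% and 69.1%, with 2 and 3 of the 5 genes. The comparisons share libraries, since normal clones stand in abnormal over normal and in normal over NF.

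On a scale that allows for transcript length, TPM, ATF4 was by far the most abundant of the 5 genes in every fetus group. Its mean was 1190.6 TPM in day 35 NF, 898 in day 30 NF, 675 in day 35 abnormal, 354 in day 35 normal, 346 in day 30 abnormal and 301 in day 30 normal libraries. In that order only day 35 abnormal and day 35 normal were neighbours without overlap. ATF3 ran from 148 TPM in day 30 abnormal libraries over 63.7 in day 35 abnormal, 32.9 in day 35 NF, 25.5 in day 30 NF and 9.58 in day 35 normal to 5.11 TPM in day 30 normal libraries. Its day 35 abnormal, day 35 NF and day 30 NF libraries overlapped as neighbours, and the other neighbours did not. TRIB3 means ran from 60.1 TPM in day 35 NF over 28.6 in day 30 NF, 20.4 in day 35 abnormal and 5.93 in day 30 abnormal to 0.66 in day 30 normal and 0.59 TPM in day 35 normal libraries. Between day 35 abnormal, day 30 abnormal and the normal libraries TRIB3 did not overlap. PPP1R15A means lay between 99.7 TPM in day 35 NF and 27.7 TPM in day 30 normal libraries, and VLDLR means between 48.9 TPM in day 35 normal and 25.1 TPM in day 30 NF libraries, the narrowest range of the 5.

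Between day 35 and day 30 none of the 5 genes passed the test in normal clones or in NF fetuses. Since the normal libraries were part of the contrasts the genes were noted for, p-values of the 5 genes in normal clones are a description only. In normal clones 9.19% of all genes passed. An unadjusted p under 0.05 was found for 2618 of 9911 genes, and for 2 of the 5 genes, ATF3 and PPP1R15A. ATF3 averaged 17.2 ± 2.54 CPM at day 35 and 8.47 ± 0.814 CPM at day 30 (SD, n = 3 each), a log2 fold change of 1.02 ± 0.42 with an adjusted p of 0.146 in edgeR. PPP1R15A averaged 86.6 ± 13.2 CPM at day 35 and 55.7 ± 0.241 CPM at day 30, with 0.64 ± 0.23 and an adjusted p of 0.113 in edgeR. The libraries of the 2 days did not overlap for ATF4, ATF3, PPP1R15A and VLDLR, as for 52.7% of all genes, and the adjusted p was 0.339 for ATF4, 0.231 for VLDLR and 0.956 for TRIB3. These calls depend on the spread estimated over all 14 libraries. Over the settings other than leaving out a library, from 179 to 3635 of all genes passed. With only the normal libraries fitted, the adjusted p was 0.00694 for ATF3, 0.00709 for PPP1R15A, 0.014 for VLDLR and 0.0407 for ATF4, and over the alternatives it ran from these values up to 0.338, 0.301, 0.659 and 0.604. ATF3 also passed without the first day 35 abnormal library (adjusted p = 0.0261) or the second (0.0265), and PPP1R15A without the second day 30 NF library (0.0376).

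In NF fetuses the test called 0 of 9911 genes between the days with edgeR, with 351 at an unadjusted p under 0.05, 11 by DESeq2 and 1 by limma on TPM. The adjusted p was 1 for each of the 5 genes, with log2 fold changes from 0.36 ± 0.46 for ATF3 to 1.10 ± 0.78 for TRIB3. These rest on single libraries: without the first and the second day 30 NF library TRIB3 was 0.23 and 3.61 (adjusted p = 1 and 0.0811 in edgeR), and ATF3 was -0.04 and 0.88. Libraries of the 2 days did not overlap for 28% of all genes, and for VLDLR of the 5. In abnormal clones the values, given without a test, were 1.01 ± 0.27 for ATF4, -0.99 ± 0.46 for ATF3, 1.94 ± 0.92 for TRIB3, -0.02 ± 0.29 for PPP1R15A and 0.06 ± 0.28 for VLDLR. Without the first and the second day 35 abnormal library ATF3 was -2.48 and -0.43, ATF4 1.23 and 0.63, and VLDLR -0.62 and 0.38. In CPM, ATF4 and TRIB3 were higher at day 35 in both abnormal libraries than in either at day 30, while ATF3 was lower in both; 38.6% of all genes did not overlap there and 3.51% passed the test.

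The other genes of the pathway were examined next, in 4 lists that leave out the 5 genes: the machinery of eIF2 (its kinases, subunits, exchange factor and phosphatase), the basic leucine zipper partners of ATF4, target genes of ATF4, and chaperone and degradation genes of the ER. The lists name 93 genes, of which 54 could be measured and 50 were tested in fetuses. EIF2AK4 and CHAC1 were not among those measured. These lists and those further below were also chosen with earlier results of these data known. Their counts and adjusted p are therefore no independent support for the 5 genes. In abnormal over normal clones at day 35, 37 of 50 rose and 0 fell, 74% against 23.2% of all genes, with a median log2 fold change of 1.18 against 0 over all genes. The count was 27 without the first day 35 abnormal library and 40 without the second. It was 10 with only the compared groups fitted and 30 on TPM, a scale on which the median over all genes shifts to -0.32 and the share of calls that are higher is 17.3% in place of 47.2%.

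Of the machinery of eIF2, 7 of 10 tested genes rose at day 35 in abnormal over normal. EIF2S2, the beta subunit of eIF2, stood at 413 and 453 CPM in abnormal and at 142, 131 and 139 CPM in normal libraries (log2 fold change 1.65 ± 0.17, adjusted p = 0.000267 in edgeR). PPP1R15B, the constitutive counterpart of PPP1R15A, stood at 277 and 151 CPM in abnormal and at 85.4, 108 and 97.0 CPM in normal libraries (1.18 ± 0.26, adjusted p = 0.00914). EIF2S3 and EIF2S1, the other eIF2 subunits, and DNAJC3, an inhibitor of eIF2 kinases, rose as well, with log2 fold changes of 1.57 ± 0.23, 1.199 ± 0.28 and 1.18 ± 0.18. EIF2AK3 (PERK), the eIF2 kinase of the ER, did not pass, at 85.6 and 48.6 CPM in abnormal and 52.6, 59.4 and 51.1 CPM in normal libraries (adjusted p = 0.22).

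All 4 tested partners of ATF4 rose at day 35. DDIT3 (CHOP), a pro-apoptotic stress factor, stood at 32.2 and 18.9 CPM in abnormal and at 9.25, 9.67 and 9.36 CPM in normal libraries (1.53 ± 0.36, adjusted p = 0.0116 in edgeR). CEBPD had a log2 fold change of 1.94 ± 0.39 and CEBPG of 1.12 ± 0.29. Of the ATF4 targets 15 of 18 rose, with a median of 2.04. SESN2, an inhibitor of growth signalling, stood at 285 and 72.8 CPM in abnormal and at 15.8, 17.97 and 15.1 CPM in normal libraries (3.53 ± 0.49, adjusted p = 0.000894). STC2, a secreted stanniocalcin, stood at 168 and 48.6 CPM in abnormal and at 4.54, 2.76 and 4.57 CPM in normal libraries (4.85 ± 0.64, adjusted p = 0.000724). ASNS, asparagine synthetase, was at 303 and 124 CPM in abnormal and at 0, 17.0 and 0 CPM in normal libraries (5.27 ± 1.64, adjusted p = 0.0392). DDIT3, SESN2, STC2 and ASNS were each higher in both abnormal libraries than in any normal library, and higher in the first abnormal library than in the second. In the second, 3 counts are 8.09 CPM, so the 18.9 CPM of DDIT3 there rest on few counts.

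Of the ER genes, 11 of 18 rose at day 35. HSPA5 (BiP), the main ER chaperone, stood at 3153 and 3016 CPM in abnormal and at 797, 759.9 and 778 CPM in normal libraries (1.99 ± 0.18, adjusted p = 0.000132 in edgeR). CANX, a lectin chaperone, had a log2 fold change of 1.39 ± 0.21, MANF, a secreted ER protein, of 1.22 ± 0.24 and ERN1 (IRE1), an ER stress sensor, of 1.17 ± 0.25.

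At day 30 fewer of the same 50 genes passed in abnormal over normal: 13 rose and 0 fell, 26% against 15.4% of all genes, with a median of 0.50 against -0.02 over all genes. The machinery of eIF2 gave 1 of 10, EIF2S3 (0.91 ± 0.23, adjusted p = 0.0211 in edgeR). The partners gave 2 of 4, CEBPD at 44.1 and 63.3 CPM in abnormal and 12.1, 13.4 and 13.5 CPM in normal libraries (2.04 ± 0.41, adjusted p = 0.00913) and DDIT3 at 21.0 and 10.3 CPM against 8.44, 4.87 and 7.75 CPM (1.16 ± 0.35, adjusted p = 0.0468). Of the targets 7 of 18 rose, among them VEGFA, a vascular growth factor also induced by hypoxia, SESN2 and STC2, with log2 fold changes of 2.97 ± 0.52, 2.20 ± 0.48 and 2.80 ± 0.65. ASNS was called on 1 library, at 0 and 92.8 CPM in abnormal and 0.965, 0 and 0 CPM in normal libraries. Of the ER genes 3 of 18 rose, XBP1, the transcription factor of the unfolded protein response, and HSPA5 among them (1.02 ± 0.25 and 0.75 ± 0.18). The day 30 count turned on single libraries: it was 6 and 2 without the first and second day 30 abnormal library, 8, 2 and 5 without day 30 normal library 1, 2 and 3, and 21 without either day 35 abnormal library. With only the compared groups fitted it was 25, against 10 for day 35 in the same kind of fit, so the order of the days turned round there. It was 2 with records matched by version, 5 with the replicate block and 7 on TPM, where the median over all genes shifts to -0.27 and the share of higher calls is 27.7% in place of 58%.

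A test of the difference between the days, added after the counts were seen, passed for 6 of the 50 genes, all with a larger fold change of abnormal over normal at day 35, against 4.05% of all genes. These were HSPA5 (difference of log2 fold changes 1.23 ± 0.26, adjusted p = 0.0303 in edgeR), EIF2S2, DNAJC3, SLC38A2, CTH and ALDH1L2. The count was 22 and 17 without the first and second day 35 abnormal library. It was 0 to 2 without any 1 of the other abnormal and normal libraries and 0 with the replicate block. For the 5 genes the same difference, given without a test, was -2.01 ± 0.62 for ATF3, -0.65 ± 0.37 for PPP1R15A, -0.39 ± 0.36 for VLDLR, 0.66 ± 0.34 for ATF4 and 1.79 ± 1.54 for TRIB3. Without the first and the second day 35 abnormal library it was -3.44 and -1.39 for ATF3, -1.01 and -0.01 for VLDLR and 0.95 and 0.34 for ATF4.

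In normal clones over NF fetuses the same lists were lower. At day 35, 26 of 50 genes fell and 1 rose, 54% against 42.3% of all genes, with a median of -0.70 against 0.06 over all genes. At day 30, 23 fell and 0 rose, 46% against 29.3% of all genes, with a median of -0.67 against 0. SLC1A5, a glutamine transporter, stood at 132, 147 and 177 CPM in normal and at 845 and 1027 CPM in NF libraries at day 35 (-2.62 ± 0.24, adjusted p = 6.47e-05 in edgeR). CEBPD stood at 32.6, 39.9 and 28.3 CPM in normal and at 451 and 310.5 CPM in NF libraries at day 35 (-3.50 ± 0.39, adjusted p = 0.000145). DDIT3 fell at both days, with log2 fold changes of -1.68 at day 35 and -1.81 at day 30, as did PPP1R15B, EIF2S1, EIF2S2, DNAJC3, ERN1, STC2, SLC7A1 and SESN2. ASNS did not pass at either day, with at most 2.05 CPM in NF libraries. Since 38.4% of all records were matched, the level of ASNS may be understated in any group. Nothing about ATF4 is therefore read from it. The single gene that rose at day 35 was MAP1LC3B, an autophagy gene, named because it is the only one. The day 30 count was 15 without the second day 30 normal library and 14 without the second day 30 NF library. No gene of the lists differed in this contrast between the days by edgeR, where 2 genes (0.0202% of all) did, 1414 genes had an unadjusted p under 0.05, and DESeq2 called 1 of the list genes.

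**Figure D3:**
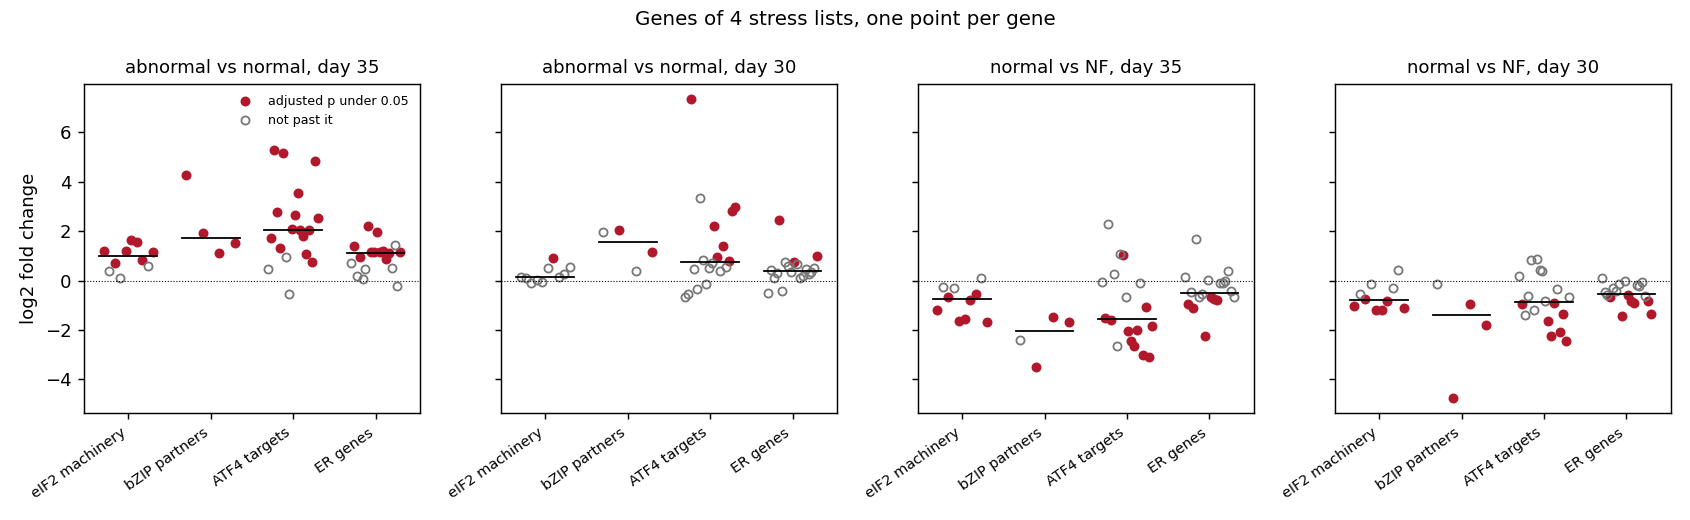
Log2 fold changes of the tested genes of 4 lists, the machinery of eIF2, the partners of ATF4, the ATF4 targets and the ER genes, in abnormal over normal and in normal over NF at day 35 and day 30; each point is a gene, filled where its adjusted p was under 0.05, and bars are medians. In abnormal over normal 37 genes are filled at day 35 and 13 at day 30, all above 0, and in normal over NF the filled genes lie below 0 except 1 at day 35.

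Abnormal clones set against NF fetuses gave a mixed picture. At day 35, 9 of 50 genes rose and 3 fell, 24% against 23.2% of all genes. HSPA5 rose by 1.33 ± 0.21 on the log2 scale (adjusted p = 0.00392 in edgeR) and HSP90B1, another ER chaperone, by 1.18 ± 0.20, while CEBPD and ERN1 fell, at -1.56 and -1.08. At day 30, 3 rose and 10 fell, 26% against 30% of all genes, those that fell including EIF2S1, EIF2B1, DNAJC3 and EIF2S2 of the machinery of eIF2. The day 35 count was 21 without the second day 35 abnormal library, 3 and 1 without the first and second day 35 NF library and 7 without day 30 normal library 2 or 3. It was 0 with only the compared groups fitted and 4 with the replicate block or with records matched by version. The day 30 count was 8 with the replicate block and 4 with records matched by version, and it was 4 and 3 without the first and second day 30 abnormal library, 4 without the second day 30 NF library, and 22 and 23 without the first and second day 35 abnormal library.

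Lists of immediate early and of hypoxia-induced genes moved beside the stress genes. In abnormal over normal, 7 of 11 immediate early genes rose at day 35 and 9 of 11 at day 30, 63.6% and 81.8% against 23.2% and 15.4% of all genes. Of the hypoxia-induced genes 10 and 8 of 11 rose, 90.9% and 72.7%. The summed level of the hypoxia-induced genes was 18669 and 1751 CPM in day 35 abnormal libraries, 1170 to 1338 CPM in day 35 normal and 1297 to 1324 CPM in day 35 NF libraries, and it was 9094 and 10498 CPM in day 30 abnormal, 1380 to 1492 CPM in day 30 normal and 1253 to 1309 CPM in day 30 NF libraries. The 2 day 35 abnormal libraries thus differed widely in this sum, and the lower one still lay above every normal and NF library. In normal over NF 7 of 11 immediate early genes fell at each day, 63.6% against 42.3% of all genes at day 35 and 29.3% at day 30, IER3 with log2 fold changes of -5.06 at day 35 and -5.35 at day 30. Their summed level was 2735 and 958 CPM in day 35 abnormal, 777 to 891 CPM in day 35 normal and 2352 to 2627 CPM in day 35 NF libraries. The part of either list in the values of the 5 genes was not tested.

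Around VLDLR, genes of reelin signalling were examined. DAB1, the intracellular adaptor of the reelin receptors, rose in normal over NF at both days (2.75 ± 0.53 at day 35 and 2.86 ± 0.53 at day 30). LRP8, the second reelin receptor, rose in normal over NF at day 35, at 43.9, 46.8 and 41.1 CPM in normal and 21.2 and 19.4 CPM in NF libraries (1.11 ± 0.33, adjusted p = 0.0189 in edgeR). At day 30 LRP8 overlapped, at 33.0, 21.2 and 31.4 CPM in normal and 24.3 and 22.1 CPM in NF libraries (adjusted p = 0.523 in edgeR). The neural sums given above were higher in normal than in NF libraries at both days, as were DAB1 and VLDLR, and their part in these values was not tested.

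In day 6 embryos the 5 genes had other levels, though fetus and embryo libraries were made with different kits, so stage and library preparation cannot be told apart. ATF4 averaged 1633 ± 718 TPM in WT+Kdm4A, 3345 ± 187 in XIST-KO, 2119 ± 609 in WT and 1528 ± 169 TPM in IVF libraries (SD, n = 2 each). TRIB3 was at 0 in all 8 libraries, which allows up to 0.181 to 0.522 CPM by a floor of 3 counts per library, a floor that covers counting error only. The embryo libraries carried trophectoderm markers, 35452 to 100932 CPM summed over 6 genes, and 4 measured markers of the inner cell mass summed to 159 to 260 CPM in WT+Kdm4A, 129 to 629 CPM in XIST-KO, 1203 to 3026 CPM in WT and 78.2 to 92.5 CPM in IVF libraries. Of these 4, NANOG and SOX2 were at 0 in the WT+Kdm4A, XIST-KO and WT libraries, and none was at 0 in IVF. The 11 chromosome Y genes summed to 201 and 84.9 CPM in WT+Kdm4A and 110 and 63.4 CPM in WT libraries. In XIST-KO, labelled male, they summed to 55.0 and 28.5 CPM, on either side of the mixed IVF pools at 41.5 and 32.4 CPM. The part of this in the embryo comparisons was not tested. Libraries of a group varied widely, with a biological coefficient of variation of 0.893 against 0.29 in fetuses.

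ATF3 was lower in WT than in any other embryo group, and PPP1R15A higher. ATF3 stood at 195 and 148 CPM in WT+Kdm4A, 137 and 163 CPM in XIST-KO, 26.6 and 29.3 CPM in WT and 78.9 and 249 CPM in IVF libraries. PPP1R15A stood at 0.482 and 1.44 CPM in WT+Kdm4A, 2.31 and 6.13 CPM in XIST-KO, 31.1 and 70.4 CPM in WT and 1.53 and 0.245 CPM in IVF libraries. WT libraries did not overlap the others for either gene, while 65.8% of all genes did not overlap in WT+Kdm4A over WT, 42.3% in XIST-KO over WT and 59% in WT over IVF.

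In WT+Kdm4A over WT, ATF3 rose by 2.62 ± 0.69 on the log2 scale and PPP1R15A fell by 5.72 ± 1.51, each with an adjusted p of 0.0439 in edgeR, where 7.43% of 6958 genes passed. Both calls were lost when some single libraries were left out. Over the alternatives the adjusted p ran from 0.0036 to 0.214 for ATF3 and from 1.6e-05 to 0.247 for PPP1R15A. For ATF3 it was 0.148 without the first WT+Kdm4A library, 0.179 and 0.214 without the first and second WT library, and 0.0545 without the second IVF library. For PPP1R15A it was 0.247 and 0.0725 without the first and second WT+Kdm4A library, 0.0929 and 0.227 without the first and second WT library, and 0.0553 without the second IVF library. RLE size factors and limma on TPM also lost the ATF3 call, at 0.0529 and 0.0788.

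In WT over IVF, PPP1R15A rose by 5.84 ± 1.53 (adjusted p = 0.0488 in edgeR, 5.71% of all genes passed), and ATF3 had -2.56 ± 0.69 with an adjusted p of 0.0527. For PPP1R15A the adjusted p ran from 3.66e-05 to 0.276 over the alternatives. It was 0.098 and 0.242 without the first and second WT library, 0.137 and 0.276 without the first and second IVF library, and 0.0667 with the replicate block. ATF3 passed without either WT+Kdm4A library (0.0236 and 0.0244) or either XIST-KO library (0.0256 and 0.0297), and with 4 other settings, over a range of 0.00249 to 0.364. In XIST-KO over WT, where 1.11% of all genes passed, ATF3 had 2.43 ± 0.69 (adjusted p = 0.0962) and PPP1R15A -3.58 ± 1.36 (adjusted p = 0.194). ATF3 passed there without the first WT+Kdm4A library (0.0405), with no filter on low counts (0.0225) and by DESeq2 (0.0107), over a range of 0.0107 to 0.34, and PPP1R15A by DESeq2 (0.0148), over a range of 0.0148 to 0.534. None of the 5 genes passed in XIST-KO over IVF or WT+Kdm4A over IVF in edgeR, where 0.0431% of all genes passed in each and 41.6% and 51.3% did not overlap.

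ATF4 did not pass in any embryo comparison, with adjusted p from 0.242 in WT over IVF to 0.795 in WT+Kdm4A over WT. VLDLR was at 4.46 and 1.2 CPM in WT+Kdm4A libraries, at 0 in all XIST-KO and WT libraries and at 0 and 2.45 CPM in IVF libraries. The mean of VLDLR in WT+Kdm4A, 2.83 CPM, was 11.3 times a floor of 3 counts over the WT group, 0.251 CPM. That floor covers counting error only, and the lower WT+Kdm4A library lay nearer to it. VLDLR did not pass in WT+Kdm4A over WT (adjusted p = 0.17 in edgeR, or 0.0334 with only the compared groups fitted).

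**Figure D4:**
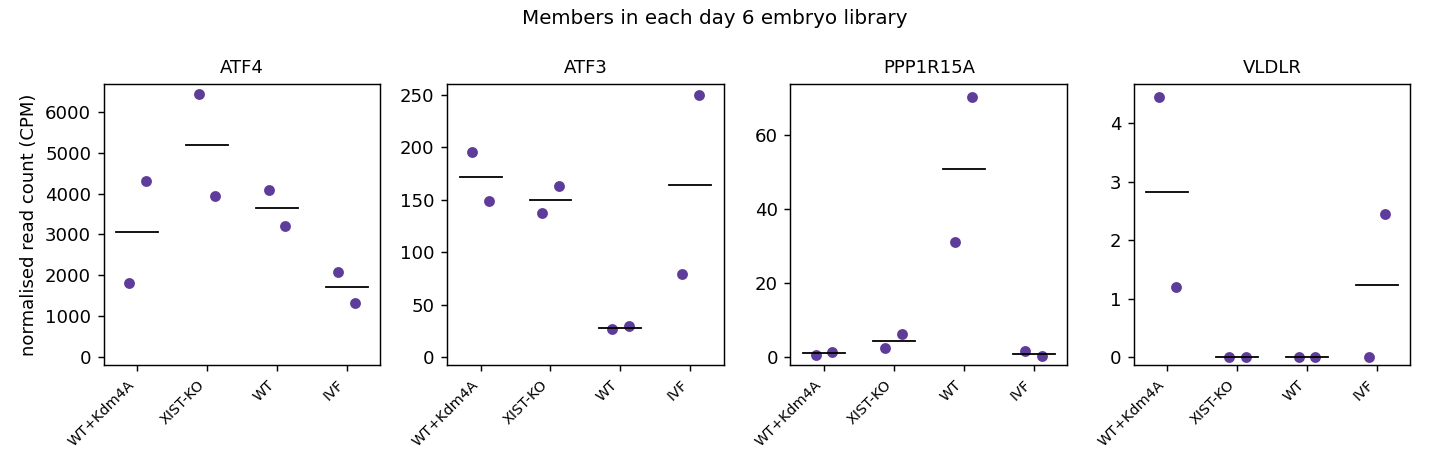
Normalised read counts (CPM, linear axes) of ATF4, ATF3, PPP1R15A and VLDLR in the 8 day 6 embryo libraries, by group; each point is a library and each bar the mean of 2. WT libraries are lowest for ATF3, at 26.6 and 29.3 CPM, and highest for PPP1R15A, at 31.1 and 70.4 CPM; TRIB3, at 0 in every library, is not drawn.

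Of the 4 stress lists, 49 genes were tested in embryos. In WT+Kdm4A over WT 3 rose and 3 fell, 12.2% against 7.43% of all genes. In XIST-KO over WT 2 rose, 4.1% against 1.11%, and in WT over IVF 4 rose and 1 fell, 10.2% against 5.71%. CTH, cystathionine gamma-lyase, and PSPH, phosphoserine phosphatase, both ATF4 targets, rose in WT+Kdm4A over WT (6.12 ± 1.09 and 2.72 ± 0.61) and in XIST-KO over WT (4.86 ± 1.04 and 4.05 ± 0.65). CTH stood at 344 and 115 CPM in WT+Kdm4A, 25.1 and 168 CPM in XIST-KO, 2.25 and 4.35 CPM in WT and 134 and 255 CPM in IVF libraries. The ER genes SDF2L1 and CRELD2 were high in WT, SDF2L1 at 2.11 and 4.55 CPM in WT+Kdm4A, 30.2 and 2.0 CPM in XIST-KO, 288 and 1173 CPM in WT and 6.12 and 3.19 CPM in IVF libraries. In WT+Kdm4A over WT SDF2L1 and CRELD2 fell, with log2 fold changes of -7.78 (adjusted p = 0.0118 in edgeR) and -4.27 (adjusted p = 0.0122), and in WT over IVF they rose by 7.30 and 3.49. LRPAP1, the chaperone of VLDLR and its relatives, was at 15.1 and 30.4 CPM in WT+Kdm4A, 36.1 and 25.8 CPM in XIST-KO, 2712 and 2591 CPM in WT and 19.0 and 6.01 CPM in IVF libraries, while VLDLR itself was at 0 in WT. These 3 comparisons share the WT libraries. The count in WT+Kdm4A over WT was 10 without the second WT+Kdm4A library, 2 and 0 without the first and second WT library, and 12 and 11 without the first and second XIST-KO library. In XIST-KO over WT it was 0 without either WT library, the second XIST-KO or the second IVF library, 1 without the first IVF library, and 8, 7 and 7 without the first or second WT+Kdm4A or the first XIST-KO library. In WT over IVF it was 2 and 1 without the first and second WT library, 1 and 0 without the first and second IVF library, and 10 and 9 without the first and second XIST-KO library.

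The transcript records behind 2 of the genes were used differently in the 2 stages. For ATF3, the record of 2011 nt held a median of 95.8% of the gene's expected counts in fetuses (range 73.4 to 100) and 9.2% in embryos (0 to 69.5), and the record of 1913 nt the rest. For PPP1R15A, the record of 2379 nt held 54% in fetuses (31.1 to 67.7) and 100% in embryos (94.5 to 100). How RSEM divides reads between records so alike in length is uncertain. The summed counts do not depend on the split between the matched records, while summed TPM does through their lengths. For ATF3, with 2 of 4 annotated transcripts matched, any reads given to the others are missing from the sums. Stage and library kit cannot be told apart here either, so no test was made.

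**Figure D5:**
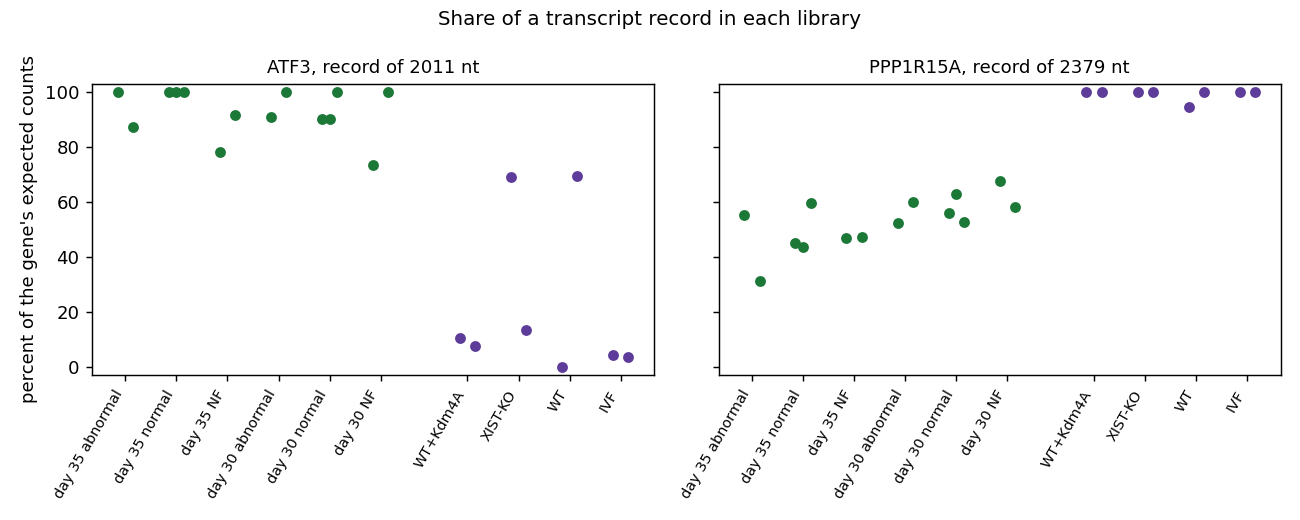
Percent of the expected counts of ATF3 held by its record of 2011 nt and of PPP1R15A by its record of 2379 nt, in each library of the fetus groups (green) and embryo groups (purple). The ATF3 record holds 73.4% or more in every fetus library and 69.5% or less in every embryo library, and the PPP1R15A record at most 67.7% in fetuses and at least 94.5% in embryos.

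Over the 14 fetus libraries the levels of the 5 genes, as log2(CPM + 1), varied together to differing degrees. These correlations describe the libraries and share their groups and depth. Pearson's r was 0.93 for ATF4 with TRIB3, 0.91 for TRIB3 with PPP1R15A, 0.83 for ATF3 with PPP1R15A and 0.81 for ATF4 with PPP1R15A, but 0.42 for ATF4 with ATF3. VLDLR had r from -0.39 with ATF4 to 0.31 with ATF3. Of 9309 genes searched, those whose levels were most like a member were MYC (r = 0.98), CREB3L1 (0.979) and MRPS7 (0.978) for ATF4; SRSF5 (0.981), TNFSF9 (0.967) and MAFF (0.966) for ATF3; SLC1A5 (0.971), LOC100624226 (0.969) and PELO (0.967) for TRIB3; FAM83G (0.959), SF3B4 (0.955) and RASD1 (0.953) for PPP1R15A; and FSCN2 (0.91), RASGRP2 (0.907) and CHPT1 (0.898) for VLDLR. No gene was among the 3 most alike for more than 1 member.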

How the data were processed

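RNA was sequenced from 14 pig fetus libraries and 8 embryo libraries. NEBNext kits were used on 1 ug of total RNA per fetus library and on 100 ng of cDNA per embryo library, per the labels. Per the submitters' processing notes, RSEM 1.2.4 and the build Sscrofa11.1 (susScr11) were used; no source used here names the aligner. The deposited tables hold 65927 RefSeq records per library, each with an expected count that the authors made with RSEM from their reads before they deposited the files, per the file headers and the submitters' processing notes. A TPM value, scaled for length by the authors, stands beside it per the file headers.

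Records were matched to the RefSeq annotation of Sscrofa11.1 by accession without version, which placed 25305 records (38.4%) in 14389 genes; with the version 4758 (7.2%) matched. These records carried 66% to 69% of the counts in fetuses and 79.5% to 85% in embryos. Expected counts and TPM were summed per gene. Each stage was fitted as a whole, a mean per group, in edgeR 4.0.16 (R 4.3.3): counts rounded, filterByExpr, TMM, quasi-likelihood F-test, Benjamini-Hochberg adjustment over all genes tested, 0.05. SE is the log2 fold change over the square root of F. CPM uses the effective library sizes of that fit.

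The 5 members and the pathway lists were chosen with earlier results of these data known. A test of the members in normal against NF had been planned and was dropped, because the normal libraries also stand in the contrasts the members were noted for. The test between days in normal clones shares those normal libraries. It was kept, with its p-values for the members as a description. All 5 members are given in each fetal comparison. From each list and comparison, up to 4 genes were taken by size of change, among those past 0.05 with non-overlapping libraries and a mean log2 CPM of 1 or more, plus core genes such as EIF2AK3, DDIT3, ASNS, HSPA5 and LRP8 whether or not they passed. Genes outside this are named where they make up a count. Some genes near VLDLR are not reported here. Settings tried besides were size factors by RLE, an unfiltered table, limma 3.58.1 on log2(TPM + 1), DESeq2 1.42.0, only the compared groups, the replicate number as a block, records matched with version, and each library left out in turn; a crossed block and the test of the difference between days in abnormal over normal were added after seeing the data. The fit was tested on simulated data. Python 3.11.15 with pandas 2.3.3 made the tables, and matplotlib 3.10.9 the figures.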

Additional observations from a re-analysis of the deposited data

Results flagged for a closer look

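For 2 genes of the stress lists, abnormal and normal libraries did not overlap at either day and differed in opposite directions, ALDH1L2, a mitochondrial folate enzyme, and CALR, an ER chaperone. Of all genes, 43% did not overlap at day 35 and 64.2% at day 30. ALDH1L2 stood at 143 and 80.9 CPM in abnormal and 22.7, 43.6 and 38.8 CPM in normal libraries at day 35, and at 31.0 and 30.8 CPM in abnormal and 59.1, 35.8 and 40.2 CPM in normal libraries at day 30. The log2 fold change of ALDH1L2 was 1.73 ± 0.32 at day 35 (adjusted p = 0.00402 in edgeR). At day 30 it was -0.54 ± 0.33 and did not pass (adjusted p = 0.3). The difference of the 2 days, 2.27 ± 0.47, passed with an adjusted p of 0.0281 in edgeR. CALR stood at 1119 and 2201 CPM in abnormal and 1003, 935 and 1112 CPM in normal libraries at day 35, and at 936 and 911 CPM in abnormal and 1216, 1337 and 1310.0 CPM in normal libraries at day 30. Its log2 fold changes were 0.70 ± 0.28 at day 35 (adjusted p = 0.098 in edgeR) and -0.48 ± 0.29 at day 30 (0.288). Neither passed, nor did their difference, 1.18 ± 0.41 (adjusted p = 0.12).

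In 5 further genes the fold change of abnormal over normal was larger at day 35 than at day 30 by the test of the difference itself. The difference in log2 fold change was 2.31 ± 0.52 for CTH (adjusted p = 0.0366 in edgeR), 1.42 ± 0.31 for SLC38A2 (0.0324), 1.23 ± 0.26 for HSPA5 (0.0303), 1.13 ± 0.24 for EIF2S2 (0.0305) and 1.01 ± 0.25 for DNAJC3 (0.0455). Both day 35 abnormal libraries, which are low in chromosome Y genes although labelled male, enter each of these differences, and the part of that in them was not tested.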

How the results depend on the processing

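For the 5 genes, 453 values under settings other than leaving out a library stayed on their side of the threshold or, where no test is given, moved by less than the spread between libraries, 13 moved further, 12 gained a call and 3 lost one; with a library left out the numbers were 896, 12, 8 and 13. Counted apart was ATF3 in abnormal over NF at day 35, given without a test. It was 1.45 as reported, -0.02 without the first day 35 abnormal library and 2.03 without the second, and the cause was not tested. Other values also changed sign, among them VLDLR in abnormal over normal at day 35 (0.10 as reported, -0.17 with records matched by version and -0.29 on TPM). The count of stress list genes called moved by more than 1.5 times in several settings. In abnormal over normal at day 30 the count, 13 as reported, was 5 with the replicate block, 2 with records matched by version, 7 on TPM and 25 with only the compared groups, and 2 to 21 leaving out a library. At day 35, 37 as reported, it was 15 where the version had to match and 10 in a fit of the compared groups alone, and 27 to 40 leaving out a library. In normal over NF, 23 at day 30 became 7 and 27 at day 35 became 11 with records matched by version, which match fewer genes, and leaving out a library gave 14 to 31 and 19 to 35. In WT over IVF, 5 as reported, it was 9 with no filter or with only the compared groups, 3 with records matched by version and 13 by DESeq2, and 0 to 10 leaving out a library. In XIST-KO over WT, 2 as reported, it was 1 with RLE size factors, with records matched by version or with only the compared groups, 8 with no filter, 4 with the replicate block or on TPM and 12 by DESeq2, and 0 to 8 leaving out a library. In WT+Kdm4A over WT, 6 as reported, it was 13 with no filter, 3 with records matched by version and 14 by DESeq2 or with only the compared groups, and 0 to 12 leaving out a library. Same-numbered libraries did not deviate together, with correlations of -0.0751 to 0.167 over 31 pairs in fetuses and -0.314 to 0.116 over 12 pairs in embryos. The numbers thus gave no sign of pairing libraries. Between groups of 2 libraries both pairs carry the same value, so the pairs are not independent. Libraries of other numbers had a median correlation of 0.166 in embryos, and whether they share a batch is not given in the labels. With crossed numbers, chosen after seeing the data, XIST-KO over WT gave 7 list genes and 286 genes in all, and WT+Kdm4A over IVF 1 and 6. Over all genes, calls outside leaving out a library ran from 375 to 3807 in abnormal over normal at day 30 (1525 as reported) and from 339 to 2879 at day 35 (2300), from 731 to 4211 in normal over NF at day 30 (2906) and from 1132 to 5391 at day 35 (4190), from 90 to 1492 in WT over IVF (397), from 21 to 945 in XIST-KO over WT (77) and from 132 to 1575 in WT+Kdm4A over WT (517). Depth limits the second day 35 abnormal library, where 3 counts are 8.09 CPM, and 2 libraries per group limit every embryo comparison.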

Other observations

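Relatives of ATF4, ATF3 and TRIB3 outside the stress lists were measured as well. CREB3L1, a membrane-bound transcription factor of the secretory pathway, rose in abnormal over normal at day 35 (1.42 ± 0.35, adjusted p = 0.0153 in edgeR) and fell in normal over NF, with log2 fold changes of -1.93 at day 35 and -2.12 at day 30. TRIB2, a relative of TRIB3, fell in abnormal over normal at day 30, at 111 and 120 CPM in abnormal and 210, 209 and 214 CPM in normal libraries, with -0.87 ± 0.27 (adjusted p = 0.0497), the opposite direction of TRIB3's value there. In all, 1 of 7 tested relatives rose at day 35 and 1 fell at day 30 in abnormal over normal, 14.3% each against 23.2% and 15.4% of all genes. In normal over NF 2 and 1 fell at day 35 and day 30, 28.6% and 14.3% against 42.3% and 29.3%. In abnormal over NF 1 fell at day 35, 14.3% against 23.2%, and 4 fell at day 30, 57.1% against 30%.

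ADM, a secreted vasodilator on the hypoxia list, was high in both abnormal and NF fetuses, like PPP1R15A: it stood at 144 and 51.3 CPM in abnormal, 6.22, 3.36 and 4.79 CPM in normal and 53.2 and 147 CPM in NF libraries at day 35. At day 30 ADM stood at 92.6 and 62.0 CPM in abnormal, 0.965, 2.74 and 3.32 CPM in normal and 57.9 and 50.3 CPM in NF libraries. Of the other 10 hypoxia-induced genes tested, only VEGFA, at day 35, fell in normal over NF. CALR was at 93.4 and 131 CPM in WT+Kdm4A, 118 and 102 CPM in XIST-KO and 144 and 73.1 CPM in WT libraries. In both IVF libraries it was at 0. The WT mean was 532 times a floor of 3 counts over the IVF group, a floor that covers counting error only. Since 38.4% of all records were matched, reads of CALR on other records may be missing from any group. A level of 0 is therefore not read as absence of CALR.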
